A study of Mus musculus with 7 samples.

Results

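Transcripts of 35 cell cycle genes were measured in whole kidneys of cisplatin-treated mice, out of 54532 genes in the deposited count table. The genes were taken by symbol from a list of S-phase and mitotic genes, and all 35 were found. They were separated by role into 9 replication genes, 4 genes that control entry into S phase and 22 mitosis genes, with Ccna2 and Mki67, which also act or appear in S phase, placed among the mitosis genes. The kidneys came from C57BL/6J mice aged 6 to 8 weeks, male according to the design text, and every animal received cisplatin, a platinum drug toxic to tubule cells, at 20 mg/kg by tail vein. The Cis_DXZ group (3 libraries) also received DXZ at 40 mg/kg by that route, 30 min ahead of cisplatin and at 24 h intervals for 3 days, and the Cis_Saline group (4 libraries) is labelled saline. DXZ is not spelled out in the labels, and no kidney without cisplatin was used here. The labels do not say whether the libraries came from separate animals, so p-values measure the spread between these libraries, which may be technical.

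A cell that enters the cycle first makes cyclins D and E, which release E2F transcription factors from the RB family. E2F factors then switch on the genes that load and run the replication fork, such as the MCM helicase subunits and the sliding clamp PCNA, and those that make deoxynucleotides. The mitosis genes follow later, in G2 and M, under FOXM1 and the MYB-containing MuvB complex. In a healthy adult kidney few tubule cells divide. After toxic injury surviving tubule cells re-enter the cycle, and resident and infiltrating stromal and immune cells can divide as well.

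The promoters of replication and mitosis genes are known for words bound by these regulators, and 6 are printed here to show them. E2F words were searched as TTCCCGC or TTGGCGC or TTCGCGC or TTGCCGC, words of the cell cycle genes homology region (CHR), bound by MuvB complexes, as TTTGAA or TTCGAA, and the NF-Y word as CCAAT, each on both strands. The window ran from 250 bases before to 50 bases after the annotated start, in the RefSeq promoter table of GRCm38.p6. By symbol, 27 of the 35 genes matched, with 29 promoters. A gene was counted as holding a word if any of its promoters did, so words of a gene can stand in different promoters. Those not matched were Ccne2, Foxm1, Ccna2, Mcm4, Kif20a, Tpx2, Ccnd1 and Aurkb. An E2F word was held by 5 of 8 replication genes (62.5%) and 4 of 17 mitosis genes (23.5%), beside 10.9% of 27025 genes in the table. A CHR word was held by 2 of 8 replication genes (25%) and 13 of 17 mitosis genes (76.5%), beside 21.7% of all genes. CCAAT was held by 7 of 8 (87.5%) and 15 of 17 (88.2%), beside 41.1%. All 13 mitosis genes with a CHR word also held CCAAT, a combination found in 9.65% of all genes. Neither of the 2 matched genes of S-phase entry, Ccne1 and E2f1, held any of the 3 kinds of word. A match is a description of letters, not a binding site. The reverse complement GCGCCAA of an E2F word can overlap CCAAT, and E2F words can overlap each other. The 3 replication promoters come first, and 3 mitosis promoters follow, each 5′ to 3′ along the gene's strand with matched words in capitals.
Mcm3, chr1:20820263-20820562, minus strand: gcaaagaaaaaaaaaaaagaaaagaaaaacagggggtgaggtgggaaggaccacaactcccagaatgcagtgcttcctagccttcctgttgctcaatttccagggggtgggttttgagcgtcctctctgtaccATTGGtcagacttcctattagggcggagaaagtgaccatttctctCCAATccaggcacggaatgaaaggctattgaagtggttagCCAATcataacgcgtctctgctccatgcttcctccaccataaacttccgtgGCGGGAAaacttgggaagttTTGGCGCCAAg
Mcm6, chr1:128359656-128359955, minus strand: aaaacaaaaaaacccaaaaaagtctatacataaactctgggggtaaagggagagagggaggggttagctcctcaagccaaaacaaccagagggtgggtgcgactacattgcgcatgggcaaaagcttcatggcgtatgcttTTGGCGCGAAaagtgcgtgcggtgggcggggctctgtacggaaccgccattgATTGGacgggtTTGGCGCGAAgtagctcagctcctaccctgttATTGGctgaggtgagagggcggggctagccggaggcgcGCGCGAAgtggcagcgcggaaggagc
Rrm2, chr12:24708004-24708303, plus strand: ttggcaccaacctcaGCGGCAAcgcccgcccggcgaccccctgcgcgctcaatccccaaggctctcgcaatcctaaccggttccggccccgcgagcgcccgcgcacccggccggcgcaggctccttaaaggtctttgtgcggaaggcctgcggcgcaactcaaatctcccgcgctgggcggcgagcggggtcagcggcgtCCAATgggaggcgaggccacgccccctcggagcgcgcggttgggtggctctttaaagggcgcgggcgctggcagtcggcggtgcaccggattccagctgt
Cdk1, chr10:69352863-69353162, minus strand: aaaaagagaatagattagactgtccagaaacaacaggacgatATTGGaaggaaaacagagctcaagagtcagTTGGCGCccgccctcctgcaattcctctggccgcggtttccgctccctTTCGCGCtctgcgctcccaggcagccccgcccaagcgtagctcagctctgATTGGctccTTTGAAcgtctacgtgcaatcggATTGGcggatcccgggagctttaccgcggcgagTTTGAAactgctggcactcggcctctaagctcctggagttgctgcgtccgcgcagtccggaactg
Ccnb2, chr9:70421505-70421804, minus strand: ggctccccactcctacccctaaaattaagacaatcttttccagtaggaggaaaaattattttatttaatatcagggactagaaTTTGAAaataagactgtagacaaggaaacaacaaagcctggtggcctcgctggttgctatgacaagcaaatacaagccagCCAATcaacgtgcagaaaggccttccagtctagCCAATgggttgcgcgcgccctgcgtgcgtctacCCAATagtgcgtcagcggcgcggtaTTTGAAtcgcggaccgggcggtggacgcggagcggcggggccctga
Ube2c, chr2:164769679-164769978, plus strand: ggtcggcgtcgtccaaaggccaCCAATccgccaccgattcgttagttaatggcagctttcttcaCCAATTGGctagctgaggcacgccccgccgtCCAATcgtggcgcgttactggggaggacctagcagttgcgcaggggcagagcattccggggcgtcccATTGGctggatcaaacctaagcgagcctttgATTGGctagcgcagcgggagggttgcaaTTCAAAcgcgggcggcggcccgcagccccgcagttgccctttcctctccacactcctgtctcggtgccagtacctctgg
Mcm6 held 5 E2F words and no CHR word, Ccnb2 held 2 CHR words and no E2F word, and Cdk1 held 2 of each. The 3 CCAAT words of Ccnb2 began at -87, -54 and -21 from the start, 33 bases apart each time. Ube2c held 6 NF-Y words and 1 CHR word. Its NF-Y words at -186 and -183 overlap on opposite strands.

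**Figure D1:**
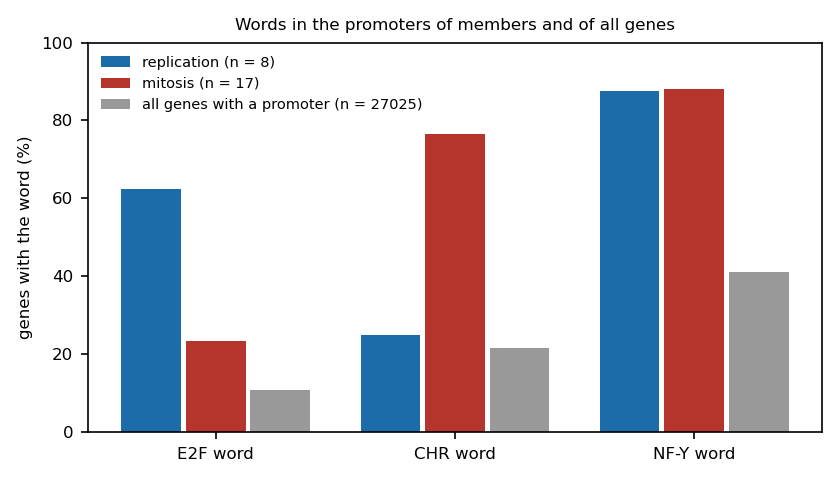
Share of genes (%, vertical axis) whose promoter window holds an E2F word, a CHR word or the NF-Y word CCAAT, for 8 replication genes (blue), 17 mitosis genes (red) and 27025 genes of the table (grey). E2F words are at 62.5% in replication and 23.5% in mitosis genes, CHR words at 25% and 76.5%, and CCAAT at 87.5% and 88.2%.

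Total counts ran from 16058157 to 18133736 per library, with 20803 to 21827 genes detected. DXZ 1 and saline 1 stood apart from the other libraries of their groups. DXZ 1 had the highest summed level of fibroblast markers (729 CPM, counts scaled to a fixed TMM-adjusted library size, over 7 genes) and of macrophage markers (389 CPM over 10 genes). In DXZ 2 and DXZ 3 the fibroblast sums were 79.5 and 48.2 CPM and the macrophage sums 131 and 76.8 CPM, and in the saline libraries they ran from 115 to 492 CPM and from 114 to 237 CPM. Proximal tubule markers, the main tubule type of a kidney, were abundant in all 7 libraries. They summed to 3145 to 4132 CPM in DXZ and 6844 to 14236 CPM in saline. Of the 10, 6 fell and 0 rose by the edgeR test (adjusted p below 0.05), where 2.31% of all tested genes fell. Injured tubule markers summed to 22077 to 36516 CPM in DXZ. By the test 3 of 9 were higher, against 3.24% of all tested genes, and 0 were lower. In saline the injured tubule markers summed to 8302 CPM in saline 1, which also had the highest proximal tubule sum. In the other saline libraries they summed to 19080 to 23785 CPM. Values without DXZ 1 are given beside many of the results.

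None of the 34 tested cell cycle genes passed edgeR's quasi-likelihood test of DXZ against saline at an adjusted p below 0.05, where 5.56% of all 15351 tested genes were called. Without DXZ 1 the count was still 0 of 34, where 10.1% of all tested genes were called. Bub1, a spindle checkpoint kinase, had too few reads to test, with 20, 9 and 2 in DXZ 1 to 3 and 8, 15, 8 and 6 in saline 1 to 4. At an unadjusted p below 0.05 there were 5 of 34, Mcm2, Mcm7, Pcna, Rrm2 and Ccne1, all with a positive fold change, against 25.4% of all tested genes in either direction and 14% with DXZ higher. DESeq2 called 1, Rrm2, with a fold change of 1.12 on the log2 scale (DESeq2 adjusted p = 0.0190), where it called 12.9% of the 15685 genes to which it gave an adjusted p. The log2 fold change was positive for 33 of 34, E2f1 being the exception, with a median of 0.50, against 51.3% positive and a median of 0.01 among all tested genes. Without DXZ 1 it was positive for 19 of 34, with a median of 0.065, without DXZ 3 the median was 0.79, and without saline 1 it was 0.43 with 33 of 34 positive. In bulk tissue fewer cells of a type and less RNA per cell cannot be told apart.

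**Figure D2:**
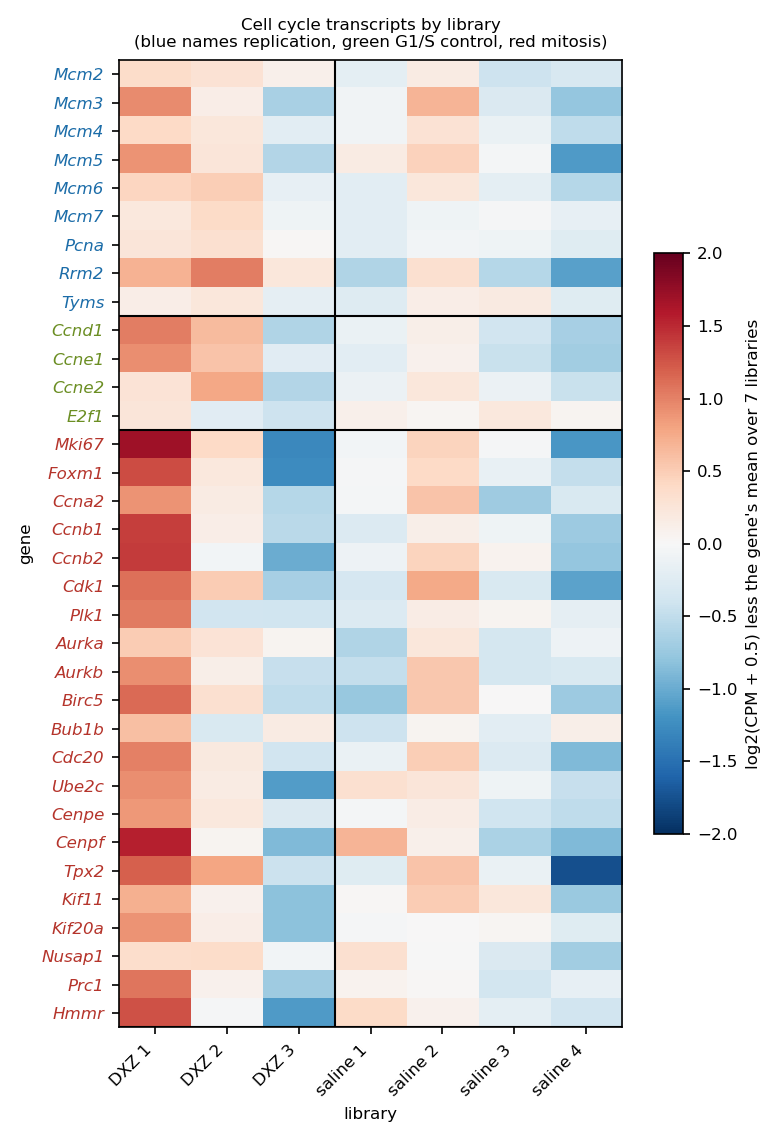
Heat map of the 34 tested genes (vertical axis, in order of role) in the 7 libraries (horizontal axis), as log2(CPM + 0.5) less each gene's mean over the libraries. DXZ 1 is the highest library for 20 of 21 mitosis genes and for 4 of 9 replication genes, and DXZ 3 is the lowest of the DXZ libraries for 33 of 34.

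**Figure D3:**
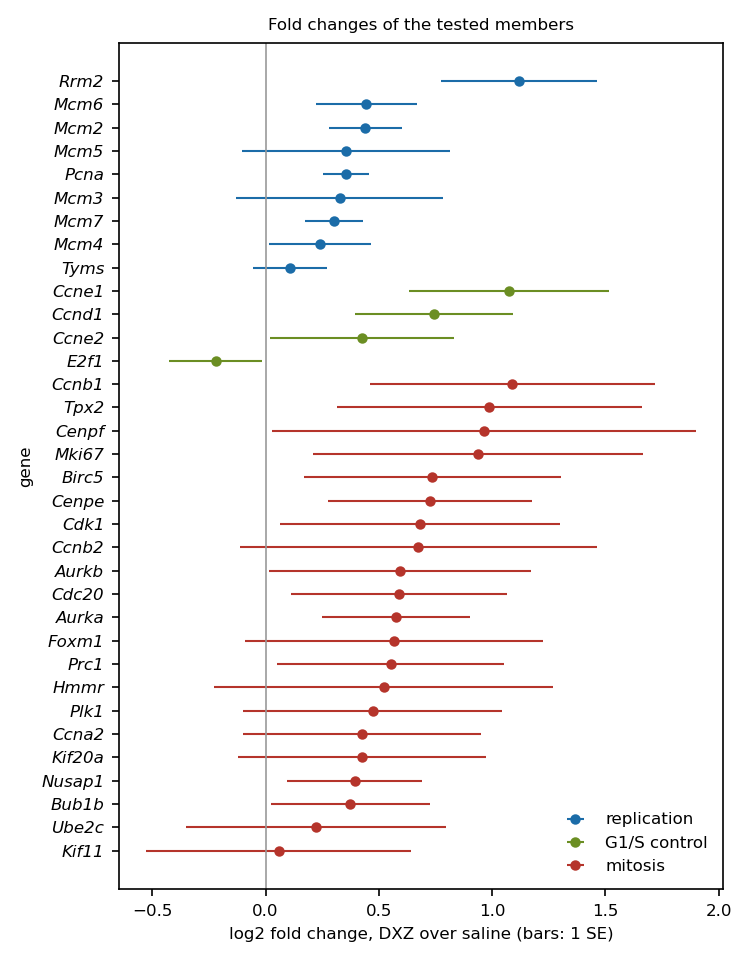
Log2 fold change of DXZ over saline (horizontal axis) for each tested gene (vertical axis), with bars of 1 SE, coloured by role. The SE has a median of 0.22 among replication genes and 0.57 among mitosis genes, and 0 of 34 passed the test.

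The replication genes were above the saline range in DXZ 1 for 8 of 9 and in DXZ 2 for 6 of 9, against 33.3% and 32% of all tested genes. DXZ 3 lay within the saline range for 8 of 9. The median log2 fold change was 0.35 and all 9 were positive, with 0 of 9 past the test. Without DXZ 1 the median was 0.29, with 7 of 9 positive. Without saline 2, the saline library with the highest replication level, it was 0.58. The genes comprise the MCM subunits of the replicative helicase, the clamp PCNA, and 2 enzymes of deoxynucleotide supply.

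Pcna, which encodes the clamp that holds DNA polymerase on its template (GRCm38 chromosome 2, 132249162 to 132253314), was the only member whose groups did not overlap. It stood at 74.1, 78.4 and 63.7 CPM in DXZ 1 to 3, against 54.1, 60.1, 58.5 and 52.8 CPM in saline 1 to 4. Every DXZ library was thus above every saline library, by a narrow margin for DXZ 3, as was the case for 12.8% of all tested genes. Its log2 fold change was 0.35 (SE 0.10, edgeR adjusted p = 0.0765).

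Rrm2 encodes the small, cell-cycle-regulated subunit of ribonucleotide reductase, which makes deoxynucleotides (chromosome 12, 24708241 to 24714146). Its levels were 18.4, 23.2 and 13.2 CPM in DXZ 1 to 3, against 7.17, 14.1, 7.33 and 4.995 CPM in saline 1 to 4. DXZ 1 and DXZ 2 lay above all saline libraries, while DXZ 3 lay just below saline 2. This was the largest fold change of the 34, at a log2 of 1.12 (SE 0.35, edgeR adjusted p = 0.0926). Without saline 2 it passed, at 1.49 (edgeR adjusted p = 0.0482), where 191 of all 15138 tested genes rose and 105 fell. Rrm2 was the only member called when any single library was left out.

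Tyms, thymidylate synthase, which makes dTMP, had the smallest fold change of this group, at a log2 of 0.11 (SE 0.16, edgeR adjusted p = 0.723). It stood at 23.3, 24.97 and 18.7 CPM in DXZ 1 to 3, against 17.7, 23.4, 23.9 and 17.7 CPM in saline 1 to 4. The groups overlapped broadly.

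Among the helicase subunits, Mcm2 stood at 23.4, 22.3 and 19.4 CPM in DXZ 1 to 3, against 15.8, 20.3, 13.4 and 14.5 CPM in saline 1 to 4. DXZ 1 and DXZ 2 were above every saline library and DXZ 3 was below saline 2 only. Its log2 fold change was 0.44 (SE 0.16, edgeR adjusted p = 0.138). In Mcm6 too, DXZ 1 and DXZ 2 were above and DXZ 3 was inside the saline range, at 28.97, 30.2 and 19.0 CPM in DXZ 1 to 3 against 18.5, 25.1, 18.6 and 14.3 CPM in saline 1 to 4, with a log2 fold change of 0.45 ± 0.22 (SE) and an adjusted p of 0.255 by edgeR. Mcm4 stood at 16.01, 14.2 and 10.4 CPM in DXZ 1 to 3, against 11.5, 14.9, 11.0 and 8.34 CPM in saline 1 to 4. Only DXZ 1 was above the saline range there, and the log2 fold change was 0.24 (SE 0.23, edgeR adjusted p = 0.546), or 0.10 without DXZ 1. Mcm7 had a log2 fold change of 0.30 ± 0.13 (SE) and an adjusted p of 0.183 by edgeR.

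Mcm3 and Mcm5 had the widest range of the replication genes within the DXZ group. Mcm3 stood at 14.2, 7.86 and 4.37 CPM in DXZ 1 to 3, against 6.71, 11.7, 5.74 and 3.94 CPM in saline 1 to 4. Mcm5 stood at 12.3, 7.62 and 4.07 CPM in DXZ 1 to 3, against 7.22, 8.98, 6.17 and 2.64 CPM in saline 1 to 4. In both, DXZ 1 was the highest library, DXZ 2 and DXZ 3 lay within the saline range, and the ratio of DXZ 1 to DXZ 3 was 3.25 and 3.02, against 1.16 to 1.54 in the other 7 replication genes. Their log2 fold changes of 0.33 and 0.35 became -0.20 and -0.097 without DXZ 1. Although the subunits form one hexamer, their mean levels per length ranged from 1.74 FPKM (fragments per length and library size) for Mcm5 to 6.16 FPKM for Mcm7, and Pcna was the highest member at 26.1 FPKM.

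For the 4 genes of S-phase entry the log2 fold change had a median of 0.58, and 3 of 4 were positive and 0 of 4 past the test. The median rested on single libraries, at 0.40 without DXZ 1, 0.32 without DXZ 2 and 0.92 without DXZ 3. Ccnd1, encoding cyclin D1, which answers growth factor signals and came next to Pcna in level at 20.5 FPKM, stood at 182, 139 and 58.5 CPM in DXZ 1 to 3, against 81.3, 97.0, 68.1 and 56.3 CPM in saline 1 to 4. DXZ 1 and DXZ 2 were above every saline library, and DXZ 3 was above saline 4 only. The log2 fold change was 0.74 (SE 0.35, edgeR adjusted p = 0.229), or 0.38 without DXZ 1.

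Ccne1, encoding cyclin E1, a partner of CDK2, stood at 2.87, 2.12 and 1.004 CPM in DXZ 1 to 3, against 1.03, 1.37, 0.794 and 0.588 CPM in saline 1 to 4. Again DXZ 1 and DXZ 2 were above the saline range and DXZ 3 was within it. For Ccne1 the log2 fold change was 1.07 (SE 0.44, edgeR adjusted p = 0.175), or 0.72 without DXZ 1. Its paralog Ccne2 stood at 2.65, 3.93 and 1.24 CPM in DXZ 1 to 3, against 1.89, 2.56, 1.89 and 1.41 CPM in saline 1 to 4. DXZ 3 was the lowest of all 7 libraries, and the log2 fold change was 0.43 (SE 0.41, edgeR adjusted p = 0.557).

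E2f1, an E2F activator and itself an E2F target, was the only member with a negative fold change, at a log2 of -0.22 (SE 0.21, edgeR adjusted p = 0.548), or -0.45 without DXZ 1. It stood at 7.33, 5.2 and 4.49 CPM in DXZ 1 to 3, against 6.59, 6.30, 7.15 and 6.41 CPM in saline 1 to 4. The saline libraries were close together. DXZ 1 lay just above them, and DXZ 2 and DXZ 3 lay below.

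For the mitosis genes the DXZ libraries spread widely around the saline libraries, and 0 of 21 passed the test between groups. DXZ 1 was above every saline library for 21 of 21 tested genes, against 33.3% of all tested genes, and it was the highest of the 7 libraries for 20 of 21, against 18.7% of all. DXZ 2 was above every saline library for 7 of 21, against 32% of all, and DXZ 3 for 1 of 21, Bub1b, against 31.6%. DXZ 3 was below every saline library for 9 of 21, against 31.7%. All 21 fold changes were positive with DXZ 1, with a median log2 of 0.58, and 9 of 21 were positive without it, with a median of -0.14. Without DXZ 3 the median was 0.94. These transcripts were scarce, with 3 to 186 reads per gene and library and mean levels of 0.0633 FPKM (Cenpf) to 1.57 FPKM (Cdc20).

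Mki67, which encodes the proliferation antigen Ki-67 (chromosome 7, 135689784 to 135716361), stood at 10.5, 3.93 and 0.886 CPM in DXZ 1 to 3, against 2.75, 4.10, 2.81 and 0.999 CPM in saline 1 to 4. DXZ 1 was the highest and DXZ 3 the lowest of all libraries, a ratio of 11.8, so the DXZ group spanned the saline group on both sides. The log2 fold change was 0.94 (SE 0.73, edgeR adjusted p = 0.463) with all libraries, -0.15 without DXZ 1 and 1.42 without DXZ 3.

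The mitotic kinase and its cyclin partners were also highest in DXZ 1. Cdk1, whose kinase drives entry into mitosis, stood at 5.18, 3.27 and 1.18 CPM in DXZ 1 to 3, against 1.61, 3.98, 1.65 and 0.764 CPM in saline 1 to 4. DXZ 1 was above the saline range, and DXZ 2 and DXZ 3 were within it. For Cdk1 the log2 fold change was 0.68 (SE 0.62, edgeR adjusted p = 0.534), or 0.15 without DXZ 1. Ccnb1, encoding cyclin B1, stood at 3.44, 1.149 and 0.531 CPM in DXZ 1 to 3, against 0.745, 1.13, 0.916 and 0.411 CPM in saline 1 to 4. It had the largest fold change of the mitosis genes with DXZ 1, at a log2 of 1.09 (SE 0.63, edgeR adjusted p = 0.319), and 0.069 without that library. Ccnb2, encoding cyclin B2, had a log2 fold change of 0.68 with DXZ 1 and -0.70 without it. Ccna2, encoding cyclin A2 of S and G2 phase, was at 0.43 with DXZ 1 and -0.14 without it.

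Birc5, encoding survivin of the chromosomal passenger complex, stood at 4.73, 2.48 and 1.18 CPM in DXZ 1 to 3, against 0.917, 2.97, 1.89 and 0.940 CPM in saline 1 to 4. DXZ 1 was above the saline range and the other DXZ libraries were inside it. For Birc5 the log2 fold change was 0.74 (SE 0.57, edgeR adjusted p = 0.459), or 0.12 without DXZ 1. Tpx2, a spindle assembly factor that activates Aurora A, stood at 6.14, 4.47 and 1.65 CPM in DXZ 1 to 3, against 1.95, 3.81, 2.14 and 0.353 CPM in saline 1 to 4. Here DXZ 2 was also above every saline library, and saline 4 was the lowest of all. For Tpx2 the log2 fold change was 0.99 (SE 0.67, edgeR adjusted p = 0.397), or 0.57 without DXZ 1.

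The smallest fold changes were those of Kif11 and Ube2c. Kif11, a bipolar spindle motor, stood at 2.31, 1.33 and 0.472 CPM in DXZ 1 to 3, against 1.26, 1.96, 1.53 and 0.529 CPM in saline 1 to 4 (log2 fold change 0.058, SE 0.58, edgeR adjusted p = 0.964). Ube2c, the ubiquitin-conjugating enzyme of the anaphase-promoting complex, stood at 3.72, 1.995 and 0.531 CPM in DXZ 1 to 3, against 2.29, 2.14, 1.59 and 1.12 CPM in saline 1 to 4 (log2 fold change 0.22, SE 0.57, edgeR adjusted p = 0.846). In both genes DXZ 1 was the highest and DXZ 3 the lowest library, and without DXZ 1 the log2 fold changes were -0.55 for Kif11 and -0.50 for Ube2c.

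The widest range within the DXZ group belonged to Cenpf, a kinetochore protein, Hmmr, a microtubule-binding protein of the spindle, and Ccnb2, with DXZ 1 to DXZ 3 ratios of 17.8, 17.5 and 14.1, each resting on 4 reads or fewer in DXZ 3. Foxm1, the transcription factor that drives many of these genes, had a ratio of 11.1. A few genes did not share this range. Nusap1, which bundles spindle microtubules, Bub1b, a spindle checkpoint protein, and Aurka, the Aurora A kinase, had ratios of 1.38, 1.45 and 1.46. Bub1b stood at 2.82, 1.27 and 1.95 CPM in DXZ 1 to 3 and was the only mitosis gene in which DXZ 3 exceeded DXZ 2. The other tested genes were the kinases Plk1 and Aurkb, the anaphase-promoting complex activator Cdc20, the kinetochore motor Cenpe, and Kif20a and Prc1 of the central spindle. Their log2 fold changes lay between 0.43 and 0.73, with none past the test. Without DXZ 1 they were 0.23 for Cenpe, 0.061 for Cdc20, -0.089 for Aurkb, -0.22 for Prc1, -0.33 for Kif20a and -0.59 for Plk1.

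Within each library replication was then set against mitosis. Relative to replication, mitosis transcripts were highest in DXZ 1 and lowest in DXZ 3, with the saline libraries between them. A role score was the mean over the tested genes of log2 CPM, with each gene centred on its mean over the 7 libraries. The mitosis score thus leaves out Bub1, while the summed mitosis reads and CPM include it. The replication score was 0.50, 0.38 and -0.18 in DXZ 1 to 3, and -0.18, 0.25, -0.18 and -0.59 in saline 1 to 4. The mitosis score was 1.26, 0.23 and -0.84 in DXZ 1 to 3, and -0.08, 0.41, -0.22 and -0.76 in saline 1 to 4. DXZ 1 and DXZ 3 thus had the highest and the lowest mitosis score, while the replication scores of DXZ 1 and DXZ 2 were the highest and that of DXZ 3 lay inside the saline range. The S-phase entry score was 0.69, 0.50 and -0.50 in DXZ 1 to 3, and -0.10, 0.14, -0.22 and -0.52 in saline 1 to 4.

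The mitosis score less the replication score was 0.76, -0.15 and -0.66 in DXZ 1 to 3, and 0.10, 0.16, -0.04 and -0.17 in saline 1 to 4. The DXZ libraries therefore spanned a range that contained all 4 saline values. The group averages were -0.02 ± 0.72 (SD, n = 3) in DXZ and 0.01 ± 0.15 (SD, n = 4) in saline, a difference of -0.03, which is far smaller than the spread within DXZ. No test was run on these scores, since the genes were chosen with earlier results of these data known. Without DXZ 1 the difference was -0.42, and without DXZ 3 it was 0.29.

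**Figure D4:**
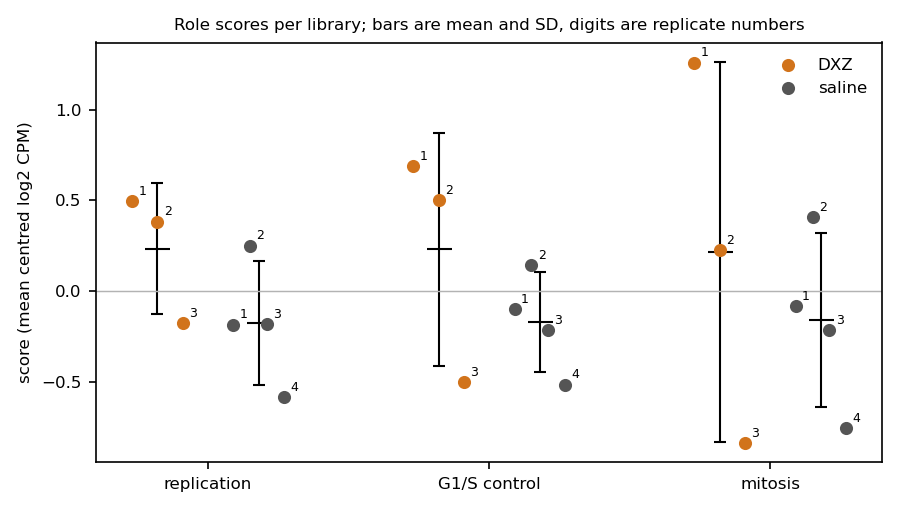
Replication, S-phase entry and mitosis scores (mean centred log2 CPM, vertical axis) of each DXZ library (orange, left) and saline library (grey, right), with the replicate number beside each point and bars for the mean and SD. The DXZ points spread from 1.26 to -0.84 for mitosis and from 0.50 to -0.18 for replication.

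Summed reads placed the same libraries at the ends. Mitosis transcripts took 26.2% of the reads of both roles together in DXZ 1 (1525 mitosis reads, 95% Clopper-Pearson interval 25.1% to 27.4%), 15.3% in DXZ 2 (14.3% to 16.4%) and 10.8% in DXZ 3 (9.76% to 11.9%). In saline 1 to 4 the shares were 17.4% (16.1% to 18.7%), 19.2% (18.01% to 20.4%), 15.02% (13.8% to 16.3%) and 12.5% (11.3% to 13.8%). The intervals cover counting error only. That of DXZ 1 lay above all saline intervals, that of DXZ 2 overlapped those of saline 1 and saline 3, and that of DXZ 3 overlapped that of saline 4. Replication transcripts summed to 242, 244 and 178 CPM in DXZ 1 to 3 and to 162, 204, 171 and 143 CPM in saline 1 to 4, so DXZ 1 and DXZ 2 were nearly equal. Mitosis transcripts summed to 85.9, 44.2 and 21.6 CPM in DXZ 1 to 3 and to 34.1, 48.5, 30.3 and 20.5 CPM in saline 1 to 4, and here DXZ 1 was well above DXZ 2.

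Macrophage, fibroblast and endothelial markers were highest in DXZ 1, the library with most mitosis transcripts, and lowest in DXZ 3. Summed macrophage markers were 389, 131 and 76.8 CPM in DXZ 1 to 3, and 174, 237, 137 and 114 CPM in saline 1 to 4. DXZ 1 was the highest library for 8 of 10 macrophage markers, against 18.7% of all tested genes. DXZ 3 was below every saline library for 9 of 10, against 31.7%. Of the 10, 5 had a positive log2 fold change, the median was 0.0031, and 1 passed the test, where 5.56% of all tested genes did. That was Cd68, a lysosomal protein, with DXZ higher (log2 fold change 1.91, edgeR adjusted p = 0.0215). Summed fibroblast markers were 729, 79.5 and 48.2 CPM in DXZ 1 to 3, and 432, 492, 203 and 115 CPM in saline 1 to 4, with DXZ 1 highest for 4 of 7 and 0 of 7 past the test. DXZ 2 and DXZ 3 were far below DXZ 1 here and below every saline library. Summed endothelial markers were 446, 157 and 102 CPM in DXZ 1 to 3, and 354, 427, 338 and 272 CPM in saline 1 to 4, with DXZ 1 highest for 5 of 8 and 0 of 8 past the test. None of these markers was at 0 in any library. Mural cell markers also summed highest in DXZ 1 (336 CPM) and lowest in DXZ 3 (165 CPM). Podocyte markers were lowest in DXZ 3 too (305 CPM) but highest in saline 4 (533 CPM).

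Within the saline group saline 2 had the highest mitosis, macrophage, fibroblast and endothelial sums and saline 4 the lowest. DXZ 2, however, had a mitosis sum near that of saline 2 with lower stromal and macrophage sums. Other immune markers were low. Neutrophil markers summed to 4.49 to 14.5 CPM in DXZ and 2.24 to 7.94 CPM in saline, with Mpo at 0 in all libraries and Ly6g in at least 1. T and NK cell markers summed to 0.827 to 5.07 CPM in DXZ and 1.53 to 5.59 CPM in saline, with Cd3e, Cd3d, Cd3g, Cd4, Nkg7 and Ncr1 at 0 in at least 1 library. The 5 markers of B and plasma cells summed to 5.08 to 8.34 CPM in DXZ and 4.89 to 10.8 CPM in saline, with Cd79a and Ms4a1 at 0 in at least 1 library. The part of these cells in the cell cycle values was not tested.

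**Figure D5:**
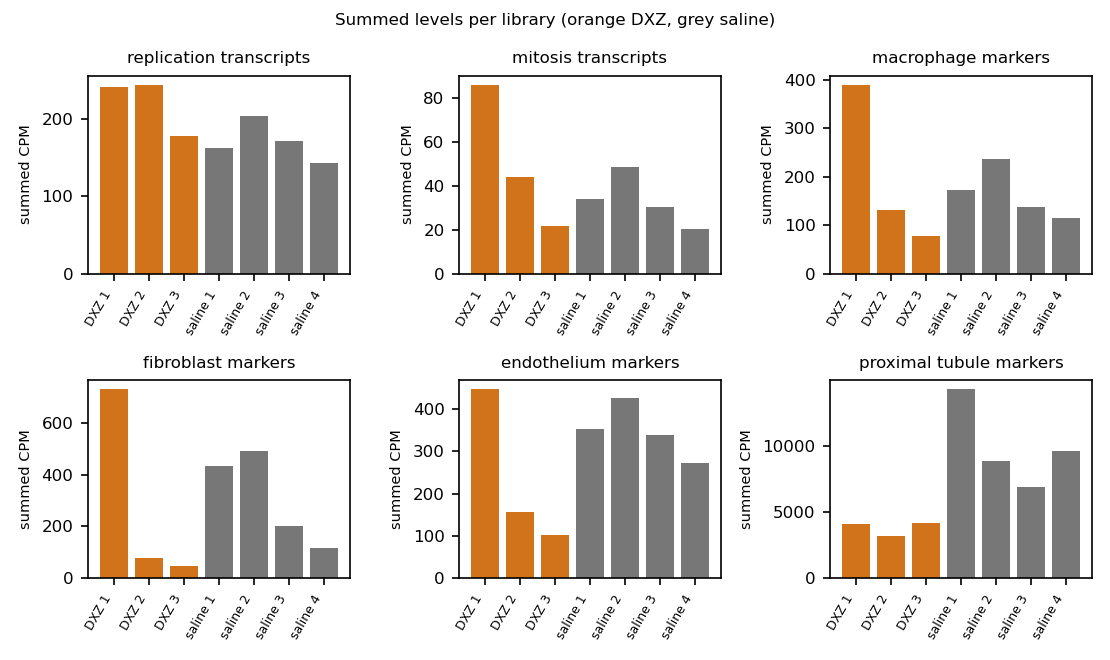
Summed CPM (vertical axes) of replication transcripts, mitosis transcripts and 4 sets of cell type markers in each DXZ (orange) and saline (grey) library. DXZ 1 has the highest bar for mitosis (85.9 CPM), macrophage (389 CPM), fibroblast (729 CPM) and endothelium (446 CPM), while all DXZ bars are below all saline bars for proximal tubule.

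Genes of the same pathways beyond the 35 were read from lists that cover the rest of the cell cycle machinery. Over all tested genes, for comparison, 5.56% changed, 3.24% rose and 25.4% had an unadjusted p below 0.05. Of 41 other replication genes 38 were tested, 0 changed, and the median log2 fold change was 0.25, with 8 of 38 at an unadjusted p below 0.05, a share under that of all genes. Of 59 other mitosis genes 48 were tested, 2 rose (4.17%), 0 fell, and the median was 0.49, so the share called was near that of all genes. The genes that rose were Pttg1, encoding securin, which holds separase inactive until anaphase, and Incenp, the scaffold of the chromosomal passenger complex. Pttg1 stood at 46.2, 60.1 and 62.4 CPM in DXZ 1 to 3, against 34.3, 39.3, 39.3 and 40.1 CPM in saline 1 to 4 (log2 fold change 0.56, SE 0.12, edgeR adjusted p = 0.0440). Unlike the mitosis genes above, it was highest in DXZ 3. Incenp stood at 9.58, 8.71 and 6.61 CPM in DXZ 1 to 3, against 4.24, 5.23, 4.52 and 4.29 CPM in saline 1 to 4 (log2 fold change 0.86, SE 0.19, edgeR adjusted p = 0.0443).

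Top2a, the topoisomerase II of dividing cells, stood at 12.6, 4.41 and 1.54 CPM in DXZ 1 to 3, against 3.61, 8.44, 2.69 and 1.59 CPM in saline 1 to 4. DXZ 1 was the highest and DXZ 3 the lowest library, and the log2 fold change was 0.60 (SE 0.73, edgeR adjusted p = 0.657), or -0.46 without DXZ 1. Of 19 nucleotide supply genes 1 rose (5.26%, again near the 5.56% of all genes), 0 fell, and the median log2 fold change was 0.05. The one called was Impdh2, the rate-limiting enzyme of guanine nucleotide synthesis, at 66.4, 68.1 and 60.3 CPM in DXZ 1 to 3 and 45.2, 44.5, 48.7 and 48.0 CPM in saline 1 to 4 (log2 fold change 0.48, SE 0.08, edgeR adjusted p = 0.0275). Tk1, thymidine kinase, was at -0.23 (SE 0.31, edgeR adjusted p = 0.702), or -0.47 without DXZ 1.

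Among 14 other cyclins, kinases and regulators of cycle entry 1 rose (7.14%, against 5.56% of all genes), 0 fell, and the median log2 fold change was 0.25. The one called was neither a cyclin nor a kinase but Myc, a transcription factor that promotes growth and cell cycle entry, at 39.0, 47.8 and 48.1 CPM in DXZ 1 to 3 and 16.5, 31.8, 21.5 and 26.9 CPM in saline 1 to 4. All DXZ libraries were above all saline libraries (log2 fold change 0.90, SE 0.21, edgeR adjusted p = 0.0492). With median-of-ratios scaling the adjusted p was 0.0508. Cdk2 and Cdk4, the kinases of S-phase entry, were at 0.28 and 0.21 (edgeR adjusted p = 0.193 and 0.238), and without DXZ 1 at 0.37 and 0.11. Of 19 E2F, RB and MYB regulators 18 were tested, 1 rose and 1 fell (11.1%, against 5.56% of all genes), with a median of 0.11. E2f4, an E2F that acts mainly as a repressor in quiescent cells, rose, at 53.0, 53.9 and 43.4 CPM in DXZ 1 to 3 and 34.2, 36.0, 32.4 and 30.3 CPM in saline 1 to 4 (log2 fold change 0.59, SE 0.11, edgeR adjusted p = 0.0301). Rbl2, encoding its pocket protein partner p130, fell, at 35.5, 32.1 and 36.3 CPM in DXZ 1 to 3 and 45.3, 43.5, 49.8 and 48.9 CPM in saline 1 to 4 (log2 fold change -0.44, SE 0.09, edgeR adjusted p = 0.0406).

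CDK inhibitor and checkpoint genes held the most calls of these lists. Of 24 genes 23 were tested, 4 rose and 0 fell, and the median was 0.36 (log2), where 3.24% of all tested genes rose. Injured tubule markers were higher in DXZ as well, with 3 of 9 past the test and a median of 1.20. Of 10 proximal tubule markers 6 fell, where 2.31% of all tested genes fell. The part of tubule injury in these values was not tested. Sfn, encoding the G2 checkpoint protein stratifin, stood at 96.1, 111 and 113 CPM in DXZ 1 to 3, against 24.7, 52.1, 43.4 and 34.8 CPM in saline 1 to 4 (log2 fold change 1.46, SE 0.23, edgeR adjusted p = 0.0215). The groups were far apart. Btg2, an antiproliferative p53 target, stood at 333, 373 and 436 CPM in DXZ 1 to 3, against 129, 212, 181 and 159 CPM in saline 1 to 4 (log2 fold change 1.16, SE 0.18, edgeR adjusted p = 0.0215). Gadd45b, a stress-induced growth arrest gene, stood at 29.9, 31.2 and 23.0 CPM in DXZ 1 to 3, against 9.57, 15.996, 12.8 and 12.6 CPM in saline 1 to 4 (log2 fold change 1.14, SE 0.19, edgeR adjusted p = 0.0224). The fourth, Gadd45a, named after its values were seen, was at 0.66 on that scale (edgeR adjusted p = 0.0393). Within DXZ, Sfn and Btg2 were lowest in DXZ 1, the DXZ library with most mitosis transcripts. Gadd45b was lowest in DXZ 3, the DXZ library with fewest.

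Cdkn1a, encoding the CDK inhibitor p21, stood at 743, 889 and 760 CPM in DXZ 1 to 3, against 152, 494, 580 and 482 CPM in saline 1 to 4. All DXZ libraries were above all saline libraries, saline 1, which also had the lowest injured tubule sum, being the lowest by far, and the log2 fold change was 0.90 (SE 0.38, edgeR adjusted p = 0.189). With saline 1 and DXZ 1 both left out it was 0.67 and passed (edgeR adjusted p = 0.0395), where 632 of all 15397 tested genes rose and 700 fell. Cdkn1a did not pass without saline 1 alone (0.62, edgeR adjusted p = 0.0757) or without DXZ 1 alone (0.95, edgeR adjusted p = 0.189). Most of the 10 calls in these lists were lost with 1 library left out. All 10 were lost without DXZ 2 or without saline 4, 8 without DXZ 3, 6 each without saline 1, saline 2 and saline 3, and 1, Incenp, without DXZ 1. Calls over all tested genes fell too, from 498 higher and 355 lower with all libraries. There were 0 higher and 1 lower without DXZ 2, 2 and 2 without saline 4, and 78 and 63 without DXZ 3. Without saline 1, 2 or 3 there were 191 to 215 higher and 105 to 211 lower, and without DXZ 1 792 and 782. The log2 fold changes of the 10 pathway genes stayed at 0.84 to 1.22 times those with all libraries.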

How the data were processed

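RNA of 7 mouse kidney libraries was extracted with Trizol, per the labels' protocols. The deposited count table holds whole-number read counts per gene, without normalization. The deposited FPKM values equal those counts over gene length, with 1 scaling constant for each library, to within a relative gap of 3.25e-08, so they are no independent measurement. HISAT2, StringTie and mm9 are named, without versions or roles, per the submitters' processing notes. The sources used here do not give the counting program or its strand setting, so paralogs and genes with antisense partners are uncertain. Gene coordinates in the tables match GENCODE M21 of GRCm38 for 53499 of 54409 shared identifiers (98.3%) and for 34 of the 35 genes described, and are taken as GRCm38.

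The analysis used edgeR 4.0.16 and limma 3.58.1 under R 4.3.3. The table lists 54532 genes, of which 27180 were detected in at least 1 library and 15351 were kept by filterByExpr. DXZ was compared with saline after TMM scaling by the quasi-likelihood F test of edgeR, adjusted by Benjamini-Hochberg over all tested genes at an adjusted p below 0.05. Fold changes are DXZ over saline on the log2 scale, and their SE was obtained from F as the size of the change over its square root. Levels are CPM of the TMM-scaled library. Scores use log2 CPM with a prior count of 2. The fit was tested on simulated counts drawn independently for each gene and library. Those counts hold no shifts shared by many genes of a library, so that test does not cover such shifts. Total counts of 16058157 to 18133736 limit precision for scarce transcripts, and the chi-square per degree of freedom between replicate libraries was 14.0 to 90.4, where sampling noise alone gives about 1, which leaves no duplicated library.

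The genes, lists, roles and markers were chosen with earlier results of these data known, so lists are described by counts and medians and not tested. A marker of B and plasma cells is not reported here, and their sums leave it out. Values in every library are given for Mki67, Pcna, Rrm2, Mcm2, Ccne1, Ccnd1, Ccnb1, Cdk1, Birc5 and the 2 highest and 2 lowest fold changes of each role among genes averaging 1 CPM or more, and for Mcm3 and Mcm5, chosen after their values were seen. From each pathway list up to 3 called genes of lowest adjusted p are named, and always Cdkn1a, Top2a, Tk1, Cdk2 and Cdk4. The alternatives were median-of-ratios scaling, no filter, DESeq2 1.42.0, limma on log2 FPKM with a pseudocount of 1 or 0.1 for genes at an FPKM of 1 in 3 libraries or, for the pseudocount of 1, unfiltered, another prior count, each library left out in turn, the replicate number as a block, and saline 1 and DXZ 1 both left out.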

Additional observations from a re-analysis of the deposited data

Results flagged for a closer look

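Each library was set against the others of the saline group for 71 quantities, and in 3 of them 1 library lay far from the other saline libraries (Dixon's ratio of its gap to the group's range), where chance passes about 1 in 20. Aurkb, encoding the Aurora B kinase, was at 1.55 CPM in saline 2 and at 0.516 to 0.646 CPM in the other saline libraries (ratio 0.873). Pttg1, encoding securin, was at 34.3 CPM in saline 1 and at 39.3 to 40.1 CPM in the others (ratio 0.867). Summed markers of B and plasma cells were at 10.8 CPM in saline 1 and at 4.89 to 5.05 CPM in the others (ratio 0.972).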

How the results depend on the processing

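No cell cycle gene of the 35 was called under any alternative run except Rrm2, by DESeq2 and without saline 2, so that their count of changed genes was 1 by DESeq2 and 0 to 1 with each library left out in turn. Some of these runs called hardly any gene, so a count of 0 there says little about the 35. Without DXZ 2, 0 of all 15705 tested genes rose and 1 fell. Without saline 4, 2 of all 15205 rose and 2 fell. The FPKM filter left 13 of the 35 to test by limma. Over all genes, 498 were higher in DXZ by edgeR, against 1114 by DESeq2, 322 by limma on log2(FPKM + 0.1), 166 by limma on log2(FPKM + 1) without a filter and 0 to 792 with 1 library left out. By edgeR 355 were lower, against 913 by DESeq2, 109 by limma without a filter, 700 with saline 1 and DXZ 1 both left out and 1 to 782 with 1 library left out. With the replicate block 46 were higher and 39 lower, and all 10 calls in the pathway lists were lost, at log2 fold changes 0.92 to 1.11 times those without the block. No DXZ library shares the number of saline 4, so saline 4 does not inform the group comparison in that run. Leaving out saline 4 without a block also lost all 10. By limma without a filter 9 of the 10 were lost, at 0.64 to 1.002 times. Deviations of same-numbered DXZ and saline libraries correlated at 0.26, -0.09 and 0.23, so the numbers are not taken to pair the libraries. The sign of some fold changes turned. With the replicate block the log2 fold change was -0.11 for Ccnb2 and Hmmr, -0.0081 for Foxm1, -0.38 for Kif11, -0.012 for Mcm5 and -0.22 for Ube2c. With saline 1 and DXZ 1 both left out it was -0.26 for Aurkb, -0.083 for Birc5, -0.071 for Bub1b, -0.14 for Ccna2, -0.74 for Ccnb2, -0.42 for Foxm1, -0.55 for Hmmr, -0.57 for Kif11, -0.32 for Kif20a, -0.22 for Mcm3, -0.022 for Mcm5, -0.13 for Mki67, -0.70 for Plk1, -0.14 for Prc1, -0.51 for Top2a and -0.36 for Ube2c. With 1 library left out, the lowest log2 fold changes were -0.089 for Aurkb, -0.14 for Ccna2, -0.70 for Ccnb2, -0.0096 for Ccne2, -0.54 for Cenpf, -0.42 for Foxm1, -0.78 for Hmmr, -0.55 for Kif11, -0.33 for Kif20a, -0.20 for Mcm3, -0.097 for Mcm5, -0.15 for Mki67, -0.59 for Plk1, -0.22 for Prc1, -0.46 for Top2a and -0.50 for Ube2c. The highest were 1.08 for Aurkb, 0.80 for Ccna2, 1.16 for Ccnb2, 0.76 for Ccne2, 1.63 for Cenpf, 1.05 for Foxm1, 1.03 for Hmmr, 0.46 for Kif11, 0.86 for Kif20a, 0.69 for Mcm3, 0.66 for Mcm5, 1.42 for Mki67, 0.79 for Plk1, 0.94 for Prc1, 1.23 for Top2a and 0.67 for Ube2c. The lowest values came without DXZ 1, except for Ccne2, which was lowest without DXZ 2. The highest came without DXZ 3, except for Aurkb, Ccna2, Mcm3 and Top2a, highest without saline 2, and Cenpf, highest without saline 1. The causes were not tested. Mitosis transcripts had 3 to 186 reads per gene and library, which limits the precision of their fold changes.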
